A study of Homo sapiens with 4 samples.

Results

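The cytosolic heat shock genes described here are 10 rows of a table of 43622 genes, taken by name: the HSP70 genes HSPA1A, HSPA1B and HSPA8, the HSP110 genes HSPA4 and HSPH1, the HSP90 gene HSP90AA1, the J-domain gene DNAJB1, the small heat shock gene HSPB1, the cochaperone gene BAG3 and the transcription factor gene HSF1. RNA-seq was performed on PC3 cells, a human prostate adenocarcinoma line labelled wild type, and on PC3-shp14ARF cells, which carry an shRNA against p14ARF. Each was treated for 3 days with the vehicle DMSO or with MLN4924 at 1 µM in the labels, where the design text of the series writes 1 mM. The conditions are called Ctrl (PC3, DMSO), MLN (PC3, MLN4924), shARF (PC3-shp14ARF, DMSO) and Both (PC3-shp14ARF, MLN4924), with 3 libraries in each of the 4, and all 10 genes were above the filter on low values in the 19932 genes tested. The shRNA was brought in with a retrovirus and kept under hygromycin selection, no control shRNA is named for the PC3 arm, and the design text calls these cells a knockout. No source states that the 3 libraries of a condition came from separate cultures, so p-values measure the spread between these libraries only, and that spread may be technical.

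Heat shock proteins are chaperones that bind unfolded chains and help them fold, hold them soluble or pass them on for degradation. In the cytosol, J-domain proteins hand clients to HSP70, HSP110 and BAG proteins release the nucleotide that HSP70 holds, and HSP90 takes over clients such as kinases and steroid receptors. HSF1 drives most of these genes under proteotoxic stress by binding heat shock elements, inverted repeats of the letters GAA. MLN4924 (pevonedistat) inhibits the NEDD8-activating enzyme and so switches off the cullin-RING ubiquitin ligases, and p14ARF, a product of CDKN2A, is a tumour suppressor best known for holding back MDM2.

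Values are TPM, which scale reads by transcript length and library total, so that levels can be set beside each other between genes. The depth of the libraries is unknown. The shRNA target was checked first. CDKN2A, whose row also holds its p16INK4A transcripts, stood at 183 ± 6.49 TPM in Ctrl and 59.3 ± 1.47 in shARF, and at 118 ± 16.4 in MLN and 47.5 ± 6.40 in Both (mean ± SD, n = 3). Within a condition libraries correlated at r = 0.982 to 0.988 across 14663 genes, against 0.820 to 0.958 between conditions, and 0 pairs were identical. The epithelial genes KRT8, KRT18 and EPCAM were at or above 18.3 TPM in all 12 libraries, and KLK3, which encodes prostate-specific antigen, was listed at 0. These and other markers moved with the conditions. KRT18 fell by 0.59 in MLN vs Ctrl and fell by 1.76 in Both vs shARF on the log2 scale, EPCAM fell by 0.78 and fell by 1.95 and VIM, the filament gene vimentin, fell by 1.25 and fell by 1.27, while KRT8 passed in Both vs shARF alone (-0.85, beside 0.037). In shARF vs Ctrl KRT8 rose by 0.67, KRT18 by 0.89 and EPCAM by 0.66, and VIM fell by 0.46. Of 3 markers of other cells, PTPRC was at or below 0.322 TPM. PECAM1 averaged 11.7 TPM in Ctrl and 0.579 in MLN, and 1.91 in shARF against 0.173 in Both, whereas COL1A1 averaged 7.27 and 18.2, and 4.04 against 6.08. So the sum of the 3 hides opposite moves: it was 18.0 to 20.7 TPM in Ctrl and 17.9 to 20.4 in MLN, and 5.42 to 6.55 in shARF against 6.03 to 6.83 in Both. The part of these markers in the results was not tested. In a population of cells, less of an RNA per cell and fewer cells that hold it cannot be told apart.

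MLN4924 was accompanied by lower levels of most of these chaperone genes in both cell lines. In MLN vs Ctrl 7 of the 10 were lower at an adjusted p below 0.05 (limma), against 29.4% of all genes tested, and 0 were higher, against 32.2%. In Both vs shARF 8 were lower, against 32.8%, and 0 were higher, against 28.3%. All 10 are abundant, and the share of lower calls was larger with the filter at 1 TPM. Of 14663 genes tested there, 5324 were lower in MLN vs Ctrl and 5929 in Both vs shARF, beside 7 of the 10 in each. These comparisons share no library. The 7 of the first (HSPA1A, HSPA1B, HSPA8, HSPA4, HSPH1, HSP90AA1 and BAG3) were lower in the second too, where HSPB1 joined them, while 22.8% of all genes were lower in both. The least stable of these calls were HSPA1B in MLN vs Ctrl, lost in 8 of 15 alternatives, and BAG3 in Both vs shARF, lost in 10 of 15. In MLN vs Ctrl the 10 had a median log2 fold change of -0.42, beside 0.052 over all genes, and in Both vs shARF of -0.61, beside -0.038. Libraries of the groups compared did not overlap for 8 of the 10 in MLN vs Ctrl and for 8 in Both vs shARF, against 67.0% and 67.1% of all genes. None of the 10 passed the log2 fold change of 2 that the study set for its gene lists, which 9.43% and 9.19% of all genes passed with the same adjusted p.

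Summed over the 10 genes, these transcripts made up 0.533 ± 0.0131% of all TPM in Ctrl and 0.350 ± 0.0402% in MLN, and 0.591 ± 0.00957% in shARF against 0.346 ± 0.00997% in Both (n = 3). HSP90AA1 and HSPA8 gave most of it. By mean over the 12 libraries they ranked 65 and 76 of 19932 genes, followed by HSPB1 at 244, DNAJB1 at 462, HSPA1A at 471, BAG3 at 681, HSPA1B at 712, HSF1 at 834, HSPA4 at 1589 and HSPH1 at 3693. Of the 3 MLN libraries, MLN 1 was the lowest for 10 of the 10 genes and MLN 5 the highest for 8. This was not counted over all genes. The share of TPM from mitochondrially encoded genes was 12.9% in MLN 1, 8.61% in MLN 2 and 8.43% in MLN 5. Its part in the order of the libraries was not tested. That share was 7.85 to 10.9% in Ctrl, 6.04 to 8.03% in shARF and 10.2 to 13.2% in Both. With those 37 genes taken out and the rest rescaled, the 7 lower calls of MLN vs Ctrl stood, and Both vs shARF gave 7 lower and 1 higher.

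The promoters are shown because HSF1 reads heat shock elements from the sequence. The windows are the 250 bases before a RefSeq start of each gene (GRCh38.p14), 5′ to 3′ on the strand of the gene, with capitals for letters that match GAANNTTC or TTCNNGAA. Each of these motifs is its own reverse complement, so both strands were read, and neighbouring matches may overlap. HSP90AA1 has 2 starts in the RefSeq table and DNAJB1 has 3, of which the start nearest that of the canonical GENCODE transcript is shown. HSF1 itself had no entry there.
HSPA1A, chr6:31815293-31815542, plus strand: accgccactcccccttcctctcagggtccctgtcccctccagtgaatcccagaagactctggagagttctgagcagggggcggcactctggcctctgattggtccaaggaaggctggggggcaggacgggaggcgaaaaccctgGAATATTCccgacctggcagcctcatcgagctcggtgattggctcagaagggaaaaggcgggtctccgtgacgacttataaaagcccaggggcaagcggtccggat
HSPA1B, chr6:31827488-31827737, plus strand: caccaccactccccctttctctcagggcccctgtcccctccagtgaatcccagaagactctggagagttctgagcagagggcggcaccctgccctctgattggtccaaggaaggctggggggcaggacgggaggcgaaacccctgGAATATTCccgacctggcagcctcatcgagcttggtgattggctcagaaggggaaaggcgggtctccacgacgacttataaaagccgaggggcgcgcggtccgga
HSP90AA1, chr14:102087045-102087294, minus strand: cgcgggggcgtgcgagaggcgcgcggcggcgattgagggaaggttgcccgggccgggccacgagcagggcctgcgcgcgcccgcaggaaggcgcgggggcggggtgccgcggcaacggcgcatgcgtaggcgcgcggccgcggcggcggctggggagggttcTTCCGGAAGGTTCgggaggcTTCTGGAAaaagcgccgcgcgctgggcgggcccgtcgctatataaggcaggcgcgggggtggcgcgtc
DNAJB1, chr19:14518398-14518647, minus strand: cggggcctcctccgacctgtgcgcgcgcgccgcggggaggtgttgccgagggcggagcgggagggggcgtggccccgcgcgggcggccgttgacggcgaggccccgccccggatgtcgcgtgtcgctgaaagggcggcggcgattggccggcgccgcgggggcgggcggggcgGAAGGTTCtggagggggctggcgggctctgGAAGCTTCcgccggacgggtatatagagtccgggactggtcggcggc
BAG3, chr10:119651130-119651379, plus strand: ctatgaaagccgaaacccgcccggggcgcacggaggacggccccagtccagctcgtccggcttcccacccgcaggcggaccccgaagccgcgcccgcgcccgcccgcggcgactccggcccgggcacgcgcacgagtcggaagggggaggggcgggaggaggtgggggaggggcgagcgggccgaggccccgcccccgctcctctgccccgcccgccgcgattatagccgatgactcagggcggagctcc

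The windows of HSPA8 and HSPB1 are shown only around their matches, with 8 bases on either side.
HSPA8, chr11:123062346-123062374, minus strand: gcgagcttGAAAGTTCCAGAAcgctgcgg
HSPA8, chr11:123062171-123062199, minus strand: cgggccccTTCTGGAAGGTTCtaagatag
HSPB1, chr7:76302483-76302506, plus strand: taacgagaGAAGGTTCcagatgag

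The 2-unit motif was in 6 of the 12 windows of the 9 genes with an entry, 1 window in each of 6 genes, against 11.6% of the 35116 windows of all genes. The windows not shown, 52705 bases from the canonical start in HSP90AA1 and 10874 and 460 bases in DNAJB1, held 0 matches. It was matched once in HSPA1A, HSPA1B and HSPB1, 2 times in DNAJB1, 3 times in HSP90AA1 and 4 times in HSPA8. The longer form with 3 units, GAANNTTCNNGAA or TTCNNGAANNTTC, was in HSPA8 and HSP90AA1 and in 0.441% of all windows. HSPA8 held it 2 times, 230 to 218 and 55 to 43 bases before the start. No window of HSPA4, HSPH1 or BAG3 held the letters searched, and for HSPH1 the RefSeq start lies 484 bases from that of the canonical GENCODE transcript. HSPA8 and HSP90AA1, the most abundant of the genes that fell, held the longest matches. DNAJB1, which was not called in any comparison, held 2 matches. HSPA4, HSPH1 and BAG3, which fell, held 0. The search covered exact letters within these windows only. Any link between the matches and the changes in RNA was not tested. A match is a description of the letters and not a measured binding site.

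Among the HSP70 genes, HSPA8 showed the largest fold change of the 10 in either cell line. HSPA8 encodes HSC70, the constitutive HSP70 of the cytosol that also uncoats clathrin vesicles, and lies at chr11:123057489-123063230 with 9 exons (hg38). Library values follow the order Ctrl 1, 2 and 3, MLN 1, 2 and 5, shARF 1, 3 and 5, and Both 2, 3 and 4 throughout. In PC3 cells HSPA8 was at 1569, 1608 and 1692 TPM with DMSO and at 579, 608 and 774 with MLN4924. In PC3-shp14ARF cells HSPA8 was at 1725, 1849 and 1638 TPM with DMSO and at 745, 771 and 642 with MLN4924. No MLN4924 library reached a DMSO library, and the DMSO libraries of the cell lines overlapped. HSPA8 fell to 0.400 of its level in MLN vs Ctrl (log2 fold change -1.32, SE 0.12, adjusted p = 0.000226) and to 0.413 in Both vs shARF (-1.27, SE 0.092, adjusted p = 8.07e-05). The difference between these responses was 0.048 (95% interval -0.29 to 0.39, adjusted p = 0.858). Of all genes tested, 9.25% lay below HSPA8 in MLN vs Ctrl and 10.8% in Both vs shARF.

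HSPA1A and HSPA1B encode near-identical forms of the stress-inducible HSP70 and lie side by side at chr6:31815543-31817946 and chr6:31827738-31830254, each in 1 exon. Their promoter windows shared 235 of the 249 bases aligned, and the GAATATTC match sat 106 to 99 bases before the start of HSPA1A and 105 to 98 before that of HSPA1B. Of the 100-base stretches of the HSPA1A transcript, 72.4% were also found in HSPA1B, and how the authors shared out such reads is not stated, so the split between the 2 genes is uncertain. HSPA1A was at 408, 378 and 386 TPM in Ctrl and 206, 211 and 268 in MLN, and 414, 395 and 476 in shARF against 220, 211 and 241 in Both. Every MLN4924 library of HSPA1A was below every DMSO library. HSPA1A fell in MLN vs Ctrl by 0.78 on the log2 scale (SE 0.11, adjusted p = 0.00123) and by 0.93 in Both vs shARF (SE 0.087, adjusted p = 0.000234). HSPA1B was at 285, 251 and 261 TPM in Ctrl and 165, 178 and 244 in MLN, and 247, 242 and 291 in shARF against 193, 180 and 188 in Both. Its MLN 5 library stood apart from the other two of its condition and came within the range of shARF. HSPA1B fell by 0.46 in MLN vs Ctrl (SE 0.15, adjusted p = 0.0392) and by 0.47 in Both vs shARF (SE 0.080, adjusted p = 0.00302). The first of these calls was lost in turn without Ctrl 1 (adjusted p = 0.121), Ctrl 2 (0.0752), Ctrl 3 (0.0940), MLN 1 (0.116) or MLN 2 (0.124), and also with no filter on low values (0.0858) and with eBayes without trend (0.0605).

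With both genes summed, HSPA1A and HSPA1B together fell by 0.64 in MLN vs Ctrl (adjusted p = 0.00608) and by 0.74 in Both vs shARF (adjusted p = 0.000516). Their sum did not pass the test in shARF vs Ctrl (0.064, 95% interval -0.15 to 0.28) or in Both vs MLN (-0.031, 95% interval -0.35 to 0.29). The ratio of HSPA1A to HSPA1B was 1.47 ± 0.0381 in Ctrl and 1.18 ± 0.0764 in MLN, and 1.65 ± 0.0259 in shARF against 1.20 ± 0.0732 in Both. It was lower in all 6 MLN4924 libraries, at most 1.28, than in the 6 DMSO libraries, at least 1.43.

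HSPA4 and HSPH1 encode HSP110 proteins, which exchange the nucleotide of HSP70 and hold unfolded chains. HSPA4, at chr5:133052013-133106449 with 19 exons, was at 117, 118 and 121 TPM in Ctrl and at 89.5, 97.0 and 95.5 in MLN. In PC3-shp14ARF cells it was at 143, 136 and 140 TPM with DMSO and at 97.9, 116 and 91.3 with MLN4924. The shARF libraries were all above the Ctrl libraries, and the MLN4924 libraries of both lines overlapped. HSPA4 fell by 0.33 in MLN vs Ctrl (SE 0.046, adjusted p = 0.00122) and by 0.46 in Both vs shARF (SE 0.090, adjusted p = 0.00522), and rose by 0.24 in shARF vs Ctrl (SE 0.028, adjusted p = 0.00224).

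HSPH1, at chr13:31134973-31162388 with 18 exons, followed the same order. It was at 47.3, 49.0 and 47.8 TPM in Ctrl and 34.9, 35.9 and 39.8 in MLN, and 69.6, 66.1 and 71.6 in shARF against 41.0, 43.4 and 38.9 in Both. The DMSO levels of the 2 cell lines stood well apart while their MLN4924 levels overlapped. HSPH1 fell by 0.38 in MLN vs Ctrl (SE 0.060, adjusted p = 0.00200) and by 0.75 in Both vs shARF (SE 0.054, adjusted p = 8.43e-05). Its fall in PC3-shp14ARF cells was the larger by 0.37 on the log2 scale (SE 0.088, adjusted p = 0.00831 for the interaction). In shARF vs Ctrl it rose by 0.52 (SE 0.036, adjusted p = 0.000448), which is 1.44-fold.

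HSP90AA1, the stress-responsive HSP90 of the cytosol, lies at chr14:102080742-102139699 with 11 exons in its canonical transcript. It was at 1451, 1428 and 1530 TPM in Ctrl and at 959, 1076 and 1074 in MLN. With p14ARF silenced it was at 1988, 1852 and 1950 TPM with DMSO and at 1056, 1202 and 1038 with MLN4924. As for HSPA4 and HSPH1, shARF was above Ctrl in every library, and MLN and Both overlapped. HSP90AA1 fell by 0.51 in MLN vs Ctrl (SE 0.080, adjusted p = 0.00213) and by 0.82 in Both vs shARF (SE 0.079, adjusted p = 0.000278), and rose by 0.39 in shARF vs Ctrl (SE 0.056, adjusted p = 0.00428). The interaction was -0.31 and did not pass the test (95% interval -0.56 to -0.060, adjusted p = 0.0627). It passed without MLN 1 (-0.36, adjusted p = 0.0245), without Both 3 (-0.38, 0.0288) and with genes of a mean under 1 TPM left out of the fit (0.0359).

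DNAJB1 encodes HSP40, the J-domain protein that delivers clients to HSP70 and whose transcript is commonly read as a sign of HSF1 activity. It lies at chr19:14514769-14560391, with 3 exons in its canonical transcript. DNAJB1 was at 302, 265 and 316 TPM in Ctrl and 315, 316 and 448 in MLN, and 306, 311 and 310 in shARF against 329, 331 and 301 in Both. Apart from MLN 5, the libraries of the 4 conditions lay between 265 and 331 TPM. The log2 fold change was 0.28 in MLN vs Ctrl (95% interval -0.11 to 0.66, adjusted p = 0.175) and 0.053 in Both vs shARF (95% interval -0.066 to 0.17, adjusted p = 0.380), so no change was detectable at this spread. In Both vs shARF it passed the test as higher by 0.15 with median-of-ratios scaling (adjusted p = 0.0185), by 0.12 without the mitochondrially encoded genes (0.0409) and by 0.097 without Both 4 (0.0370).

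HSF1, on chromosome 8 with 13 exons in its canonical transcript, was at 203, 166 and 166 TPM in Ctrl and 184, 211 and 219 in MLN, and 196, 194 and 231 in shARF against 205, 187 and 208 in Both. All conditions overlapped, and their means lay between 178 and 207 TPM. The log2 fold change was 0.20 in MLN vs Ctrl (95% interval -0.062 to 0.46, adjusted p = 0.152), -0.049 in Both vs shARF (-0.25 to 0.16, adjusted p = 0.640) and 0.22 in shARF vs Ctrl (-0.070 to 0.50, adjusted p = 0.187). Without Ctrl 1, the highest Ctrl library, HSF1 passed as higher in MLN vs Ctrl (0.30, adjusted p = 0.0413). The transcript level says nothing of the phosphorylation and trimer formation by which the HSF1 protein is switched on.

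HSPB1 encodes HSP27, a small heat shock protein that holds unfolded chains without ATP. It lies at chr7:76302673-76304295 with 3 exons, and 6.05% of the 100-base stretches of its transcript were shared with the pseudogene HSPB1P1. In PC3 cells it was at 616, 597 and 579 TPM with DMSO and at 441, 552 and 562 with MLN4924, and in PC3-shp14ARF cells at 567, 571 and 682 and at 368, 313 and 398. The condition Both lay below the other 3 in every library. HSPB1 fell by 0.76 in Both vs shARF (SE 0.12, adjusted p = 0.00197), whereas the -0.21 of MLN vs Ctrl did not pass (95% interval -0.47 to 0.044, adjusted p = 0.126), although the libraries did not overlap there. The interaction was -0.54 (SE 0.16, adjusted p = 0.0236). That call was lost without Ctrl 3, MLN 2, MLN 5, shARF 5 or Both 3 and with median-of-ratios scaling, at adjusted p of 0.0536 to 0.0607.

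BAG3, a BAG cochaperone that links HSP70 to small heat shock proteins and to selective autophagy, showed another pattern. It lies at chr10:119651380-119677819 with 4 exons. BAG3 was at 373, 318 and 330 TPM in Ctrl and at 150, 177 and 200 in MLN. In PC3-shp14ARF cells it was at 222, 219 and 229 TPM with DMSO and at 199, 204 and 211 with MLN4924. Ctrl stood above the other 3 conditions, shARF was already low without the drug, and the MLN and Both libraries met between 199 and 200 TPM. BAG3 fell by 0.96 in MLN vs Ctrl (SE 0.12, adjusted p = 0.000766) and by 0.61 in shARF vs Ctrl (SE 0.065, adjusted p = 0.00175). In Both vs shARF it fell by 0.12 (SE 0.039, adjusted p = 0.0355), a call that was lost with median-of-ratios scaling (-0.027, adjusted p = 0.621), without the mitochondrially encoded genes (-0.059, 0.279) and without shARF 1, 3 or 5 or Both 2 or 3 (0.0561 to 0.0951). It was lost too in a single fit of the 12 libraries (0.270), with eBayes without trend (0.0968) and with genes of a mean under 1 TPM left out (0.0564). The interaction was 0.84 (SE 0.13, adjusted p = 0.000596) and stayed between 0.73 and 0.94 over 21 alternatives.

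**Figure D1:**
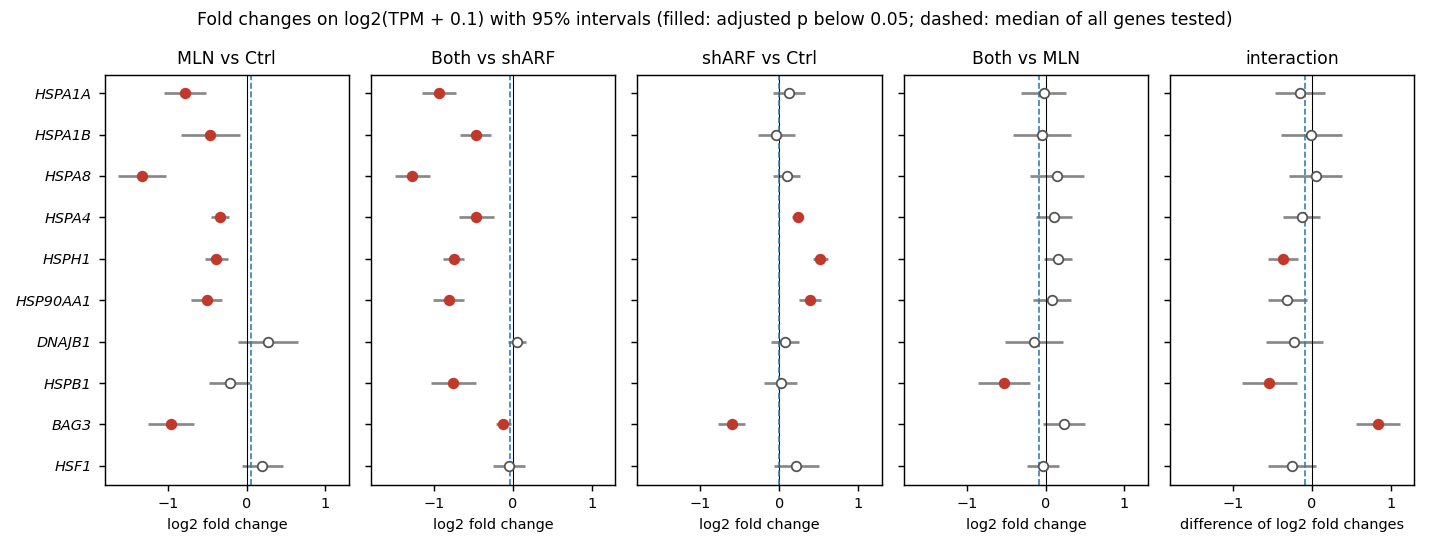
Log2 fold changes on log2(TPM + 0.1) (x axis) of the 10 genes (y axis) in 4 comparisons and in the interaction, with 95% intervals, filled where the adjusted p is below 0.05 and with the median of all genes dashed. In the first 2 panels 7 and 8 genes are filled to the left of 0, and in the last BAG3 (0.84) lies to the right and HSPH1 (-0.37) and HSPB1 (-0.54) to the left.

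The interaction asks whether the response to MLN4924 differed between the cell lines, as Both vs shARF minus MLN vs Ctrl. Of the 10 genes, BAG3 was called higher, against 11.2% of all genes, and HSPH1 and HSPB1 lower, against 17.1%. Over all genes 39.5% of the called differences were positive, which became 53.5% with median-of-ratios scaling. The median difference of the 10 was -0.19, beside -0.085 over all genes. The remaining 7 genes did not pass, with the estimates for HSPA1A at -0.15 (95% interval -0.46 to 0.16) and for HSPA1B at -0.0077 (-0.39 to 0.38). In HSPA4 it was -0.13 (-0.36 to 0.10) and passed without Both 3 (-0.23, adjusted p = 0.0431), in DNAJB1 -0.22 (-0.59 to 0.14) and in HSF1 -0.25 (-0.55 to 0.055).

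Without the drug, 4 of the 10 were called in shARF vs Ctrl, near the rate of all genes (8251 of 19932). HSPA4, HSPH1 and HSP90AA1 rose, against 21.0% of all genes, and BAG3 fell, against 20.4%. Silencing of p14ARF and other differences of the selected cell line cannot be told apart here. The median log2 fold change of the 10 was 0.11, beside 0 over all genes. The libraries did not overlap for these 4, against 53.1% of all genes, and they overlapped for the other six, which did not pass. For HSPA8 the log2 fold change was 0.097 (95% interval -0.074 to 0.27), for HSPA1A 0.13 (-0.075 to 0.33), for HSPA1B -0.035 (-0.26 to 0.20), for DNAJB1 0.074 (-0.10 to 0.25) and for HSPB1 0.017 (-0.20 to 0.23). HSPA1B turned positive without Ctrl 1, shARF 1 or shARF 3 and HSPB1 negative without the mitochondrially encoded genes, so neither has a direction here.

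With the drug in both arms, HSPB1 alone passed. In Both vs MLN it was lower by 0.53 on the log2 scale (SE 0.13, adjusted p = 0.0296), against 20.6% of all genes lower and 11.8% higher, a split of called genes of 36.4% higher that became 51.4% with median-of-ratios scaling. HSPB1 was the 1 gene of the 10 whose libraries did not overlap there, against 47.7% of all genes. Its call was lost with that scaling (adjusted p = 0.0545), with no filter on low values (0.0646) and without MLN 2 (0.104), MLN 5 (0.0930), Both 2 (0.0825) or Both 3 (0.0826). With that scaling HSPH1 passed as higher (0.25, adjusted p = 0.0189) where its main value was 0.16 (95% interval -0.016 to 0.33, adjusted p = 0.142). The other log2 fold changes ran from -0.15 in DNAJB1 to 0.23 in BAG3 (95% interval -0.034 to 0.50, adjusted p = 0.154), and HSPA1A, HSPA1B and HSF1 changed sign with median-of-ratios scaling.

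The order of the conditions by mean therefore differed between the genes. In HSPA8, HSPA4, HSPH1 and HSP90AA1 the means ran shARF, Ctrl, Both, MLN from high to low, with Both and MLN overlapping in each and with shARF and Ctrl overlapping only in HSPA8. HSPA1A and HSPB1 ran shARF, Ctrl, MLN, Both, and HSPB1 alone had its MLN and Both libraries apart. HSPA1B and BAG3 were highest in Ctrl by mean, but Ctrl and shARF overlapped in HSPA1B and were apart in BAG3. DNAJB1 was highest in MLN and lowest in Ctrl and HSF1 highest in shARF and lowest in Ctrl, with all their neighbours overlapping. The mean of the highest condition was 2.66 times that of the lowest in HSPA8 but 1.22 times in DNAJB1 and 1.16 times in HSF1.

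**Figure D2:**
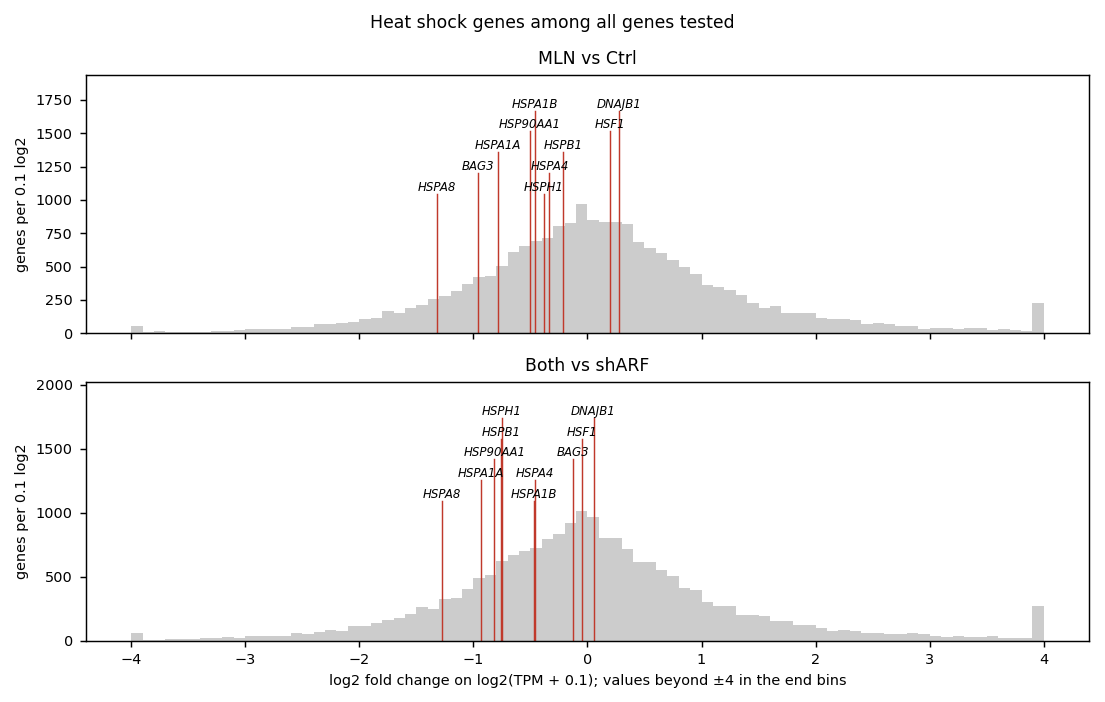
Numbers of genes (y axis) by log2 fold change on log2(TPM + 0.1) (x axis, bins of 0.1) for all 19932 genes tested in MLN vs Ctrl (top) and Both vs shARF (bottom), with a red line at each of the 10 heat shock genes. HSPA8 lies farthest left in both panels, at -1.32 and -1.27, and DNAJB1 farthest right, at 0.28 and 0.053, all inside the range of the genes as a whole.

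How the 10 genes moved with each other was described by Pearson's r of log2(TPM + 0.1) over the 12 libraries, which share conditions, drug arm and cell line. Over the 45 pairs the median r was 0.526, from -0.377 for HSPA8 and DNAJB1 to 0.978 for HSPA4 and HSP90AA1, with 32 pairs positive. With the condition means taken out, the median r was 0.491 with 39 pairs positive, and HSPA8 and DNAJB1 gave 0.842. Within MLN, MLN 1 was the lowest library for 10 of the 10 genes and MLN 5 the highest for 8. The part of that condition in these values was not tested. The libraries of MLN and of Both had the same order for HSPA8 and DNAJB1, and those of Ctrl and of shARF did not. MLN 5 was the highest of its condition in both genes, at 774 and 448 TPM. In shARF DNAJB1 stayed at 306 to 311 TPM. How often pairs of other genes were positive was not counted. HSPA1A and HSPA1B, which share most of their sequence, gave 0.937 over the libraries and 0.934 within conditions. Among genes that averaged 1 TPM or more, those most like HSPA8 were FAIM (r = 0.995), CSTF1 (0.993) and ERMAP (0.993). The most like HSPA1A were SPATA5L1 (0.991), CST3 (0.988) and ZNF503 (0.986), and the most like HSF1 were COQ4 (0.961), SH3GL1 (0.945) and ZNF414 (0.919).

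Other chaperone genes were read from 8 lists. Beside their counts, 32.2% of all genes were higher and 29.4% lower in MLN vs Ctrl. In Both vs shARF these shares were 28.3% and 32.8%. Of the 7 other HSP70 and HSP110 genes 5 were tested, of which 1 rose and 2 fell in MLN vs Ctrl and 1 rose and 1 fell in Both vs shARF. HSPA2, an HSP70 best known from the testis, was at 7.41, 7.33 and 7.10 TPM in Ctrl and at 26.9, 30.3 and 31.1 in MLN, a rise of 3.99-fold (adjusted p = 8.38e-06), and it rose 3.80-fold in Both vs shARF (adjusted p = 1.46e-05). HSPA6, a strictly stress-inducible HSP70 with a close pseudogene that may share its reads, went the other way. It was at 24.6, 21.6 and 24.0 TPM in Ctrl and 6.66, 8.31 and 9.60 in MLN, and 16.4, 14.4 and 16.6 in shARF against 4.42, 4.74 and 4.37 in Both, and fell by 1.52 in PC3 cells (adjusted p = 0.000222) and fell by 1.78 in PC3-shp14ARF cells (1.54e-05). HSPA1L fell in MLN vs Ctrl by 0.85 from a level of 2.95 ± 0.415 TPM, and HSPA4L, the most abundant of the list in mean, did not pass there (0.10, 95% interval -0.045 to 0.25).

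Of the 8 genes for HSP70 nucleotide exchange and regulation, 3 rose and 1 fell in MLN vs Ctrl and 3 rose and 4 fell in Both vs shARF. BAG2, BAG5 and BAG4, relatives of BAG3 in the BAG domain, rose by 0.82, 0.60 and 0.41 in MLN vs Ctrl and by 0.72, 0.21 and 0.26 in Both vs shARF, while ST13, the HSP70-interacting protein HIP, passed only in the latter (-0.21, adjusted p = 0.0452, beside -0.16 and 0.0516). Of the 12 genes for the HSP90 partner and its cochaperones, 3 rose and 4 fell in MLN vs Ctrl and 2 rose and 8 fell in Both vs shARF. HSP90AB1, the constitutive HSP90, went from 3096 ± 72.3 to 2192 ± 198 TPM in PC3 cells (fell by 0.50, adjusted p = 0.00717) and from 3261 ± 115 to 1835 ± 133 in PC3-shp14ARF cells (fell by 0.83, adjusted p = 0.000343), close to HSP90AA1 in size. FKBP4, the immunophilin of steroid receptor complexes, fell by 0.66 and 1.15. TTC4, an HSP90-binding protein with TPR repeats, rose by 1.27 and 1.31, and CDC37, which brings kinases to HSP90, by 0.78 and 0.28.

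Of the 9 other J-domain genes of the cytosol, 6 rose and 2 fell in MLN vs Ctrl and 4 rose and 4 fell in Both vs shARF. DNAJB4, a close relative of DNAJB1, went from 14.4 ± 1.46 to 91.3 ± 1.44 TPM in PC3 cells (rose by 2.66, adjusted p = 5.04e-06) and from 12.6 ± 0.810 to 79.9 ± 10.4 in PC3-shp14ARF cells (rose by 2.65, adjusted p = 9.09e-06), where DNAJB1 itself did not pass. DNAJB5 rose by 0.87 and 1.28 and DNAJA4 by 0.76 and 0.75, and DNAJA1, the most abundant at 471 ± 4.31 TPM in Ctrl, fell by 0.24 and 0.42. Of the 8 other small heat shock genes 4 were tested, of which 2 rose in MLN vs Ctrl and 3 in Both vs shARF, with 0 lower. CRYAB, the lens crystallin that also acts as a small heat shock protein in muscle, went from 0.738 ± 0.156 to 4.01 ± 0.382 TPM and from 4.62 ± 0.525 to 11.8 ± 1.33, and HSPB8, the usual partner of BAG3, from 4.86 ± 0.454 to 7.71 ± 0.997 and from 12.9 ± 1.36 to 22.8 ± 3.67. CRYAB and HSPB8 also rose in shARF vs Ctrl, by 2.51 and 1.39. These levels are far below those of HSPB1.

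Of the heat shock factors and their binding protein 4 of 5 were tested, with 2 higher and 1 lower in either drug comparison. HSF2, which can join HSF1 in trimers, went from 22.7 ± 1.50 to 47.4 ± 0.986 TPM in PC3 cells (rose by 1.06, adjusted p = 3.29e-05) and rose by 0.93 in PC3-shp14ARF cells, whereas HSF1 did not pass in either. HSF4 rose by 1.12 and 1.02, HSF2BP fell by 0.84 and fell by 1.77, and HSBP1, the HSF1-binding protein, did not pass (-0.038 and -0.15). Of the 8 subunits of TRiC, the cytosolic chaperonin for actin and tubulin, 1 rose and 3 fell in MLN vs Ctrl and 6 fell in Both vs shARF. CCT7 fell by 0.44 and 0.74, CCT6A by 0.38 and 0.71 and CCT4 by 0.23 and 0.58, and CCT3, the most abundant, passed in Both vs shARF alone (-0.52, beside -0.16).

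Of 8 chaperone genes of the endoplasmic reticulum and mitochondria, 1 rose and 6 fell in MLN vs Ctrl and 1 rose and 4 fell in Both vs shARF. HSP90B1, the HSP90 of the endoplasmic reticulum, fell by 1.56 and 0.90, TRAP1, the mitochondrial HSP90, by 1.26 and 1.36, and HSPD1, the mitochondrial chaperonin HSP60, by 0.46 and 1.07. HSPA9, the mitochondrial HSP70, rose by 0.74 and 0.39. In shARF vs Ctrl 21.0% of all genes were higher and 20.4% lower. There 6 of the 8 TRiC genes, 7 of the 12 HSP90 partner and cochaperone genes and 5 of the 8 HSP70 exchange genes rose. In each of these lists 0 fell. The other five lists gave 2 higher and 2 lower (HSP70 and HSP110), 1 and 2 (J-domain), 3 and 0 (small heat shock), 2 and 0 (heat shock factors) and 4 and 4 (organelles) there.

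**Figure D3:**
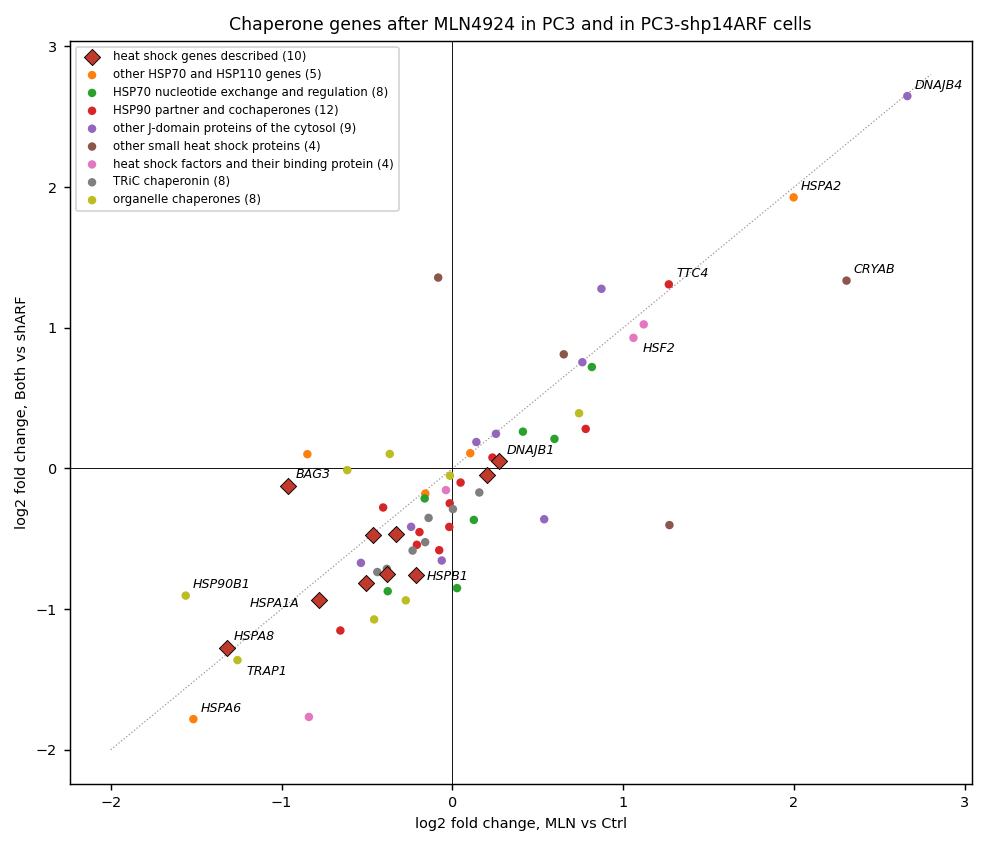
Log2 fold change of chaperone genes in MLN vs Ctrl (x axis) against Both vs shARF (y axis) on log2(TPM + 0.1), with the 10 heat shock genes as red diamonds, the genes of the other lists as points and the dotted line at equal values. DNAJB4 (2.66 and 2.65) lies at the upper right, HSPA6 (-1.52 and -1.78) and HSPA8 (-1.32 and -1.27) at the lower left, and BAG3 (-0.96 and -0.12) stands off the line.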

How the data were processed

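RNA-seq was described for 4 samples, 1 per condition, and the table holds 3 libraries of each (12 in all), assigned by column name. In CLC Genomics Workbench the authors trimmed the reads of adapters, mapped them to hg38 and quantified genes of the Ensembl annotation. The deposited values are TPM per gene, without counts, so depth is unknown and no count test was run. Strandedness and the treatment of reads shared between copies are not given in the sources used here.

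The 19932 of 43622 genes that averaged 0.1 TPM or more were tested on log2(TPM + 0.1) with limma 3.58.1 in R 4.3.3 (lmFit, eBayes with trend) and Benjamini-Hochberg adjustment over all of them. Fold changes are on that scale. Each pairwise comparison used its own 6 libraries, and the interaction all 12. The fit was tested on simulated data.

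The 10 genes and the 8 lists were chosen with earlier results of these data known. Genes named from a list are its most abundant gene and up to 3 called genes of at least 1 TPM with the largest change in MLN vs Ctrl. For HSPA1A, HSPA8 and HSF1 the 3 genes of highest r are named. Alternatives were median-of-ratios scaling, HSPA1A and HSPA1B summed, pseudocounts of 1 and 0.01, no filter or one at 1 TPM, a replicate block, eBayes without trend, a single fit of the 12 libraries and each library left out. Removal of mitochondrially encoded genes was chosen after seeing the data. Positions are from GENCODE v44 and promoters from RefSeq.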

Additional observations from a re-analysis of the deposited data

Results flagged for a closer look

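HSPH1, HSPB1 and BAG3 are listed here because the responses of the cell lines to MLN4924 differed by the test of the difference itself (limma interaction, 12 libraries). Of all genes tested 11.2% were called higher and 17.1% lower by it, so 3 of 10 is near the rate of all genes. Of 21 alternatives, the call was lost in 6 for HSPB1, in 1 for HSPH1 and in 0 for BAG3. For HSPH1 the response in PC3-shp14ARF cells minus that in PC3 cells was -0.37 on the log2 scale (adjusted p = 0.00831), and every shARF library was above every Ctrl library while the MLN and Both libraries overlapped. For HSPB1 it was -0.54 (adjusted p = 0.0236), with the 3 Both libraries below the 3 MLN libraries. For BAG3 it was 0.84 (adjusted p = 0.000596), with the 3 shARF libraries below the 3 Ctrl libraries before the drug. Each library was left out in turn, but 3 libraries in a condition are too few to tell an outlying library from the spread.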

How the results depend on the processing

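Of 820 repeats of the 50 fold changes and differences of the 10 genes, 739 kept their direction and their side of the threshold, 38 lost and 9 gained a call and 34 changed sign, and 21 of the 50 kept both throughout. The interaction of BAG3 and the falls of HSPA8, HSPA1A and BAG3 in MLN vs Ctrl passed under every alternative run. So did the falls of HSPA1A, HSPA1B, HSPA8, HSPA4, HSPH1, HSP90AA1 and HSPB1 in Both vs shARF, where no replicate block was run. Where a value changed, the cause was not tested. Depth is unknown, so no limit from counting can be given.

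With a replicate block on the library numbers, MLN vs Ctrl called 3 of the 10 genes and 5708 of all genes, shARF vs Ctrl 0 and 0 and the interaction 2 of the 10 and 3105 of all genes (limma). The calls lost were HSPA1B, HSPA4, HSPH1 and HSP90AA1 in MLN vs Ctrl (adjusted p = 0.0563 to 0.137), HSPA4, HSPH1, HSP90AA1 and BAG3 in shARF vs Ctrl (0.0622 to 0.151) and HSPH1 in the interaction (-0.25, adjusted p = 0.129). That fit has few degrees of freedom left, and the numbers did not pair the libraries (r of their deviations -0.15 and 0.0033 in MLN vs Ctrl and 0.058 and 0.030 in shARF vs Ctrl, across 14663 genes). No block could be fitted to Both vs shARF or Both vs MLN, which share 1 number. Without a filter Both vs MLN called 0 of the 10.

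Changes of sign were in values that did not pass the test. With the block DNAJB1 became 0.0026 in the interaction and -0.0022 in shARF vs Ctrl, HSPA1A 0.028 and HSPA1B 0.27 in the interaction and HSPB1 -0.070 in shARF vs Ctrl. With median-of-ratios scaling HSF1 became 0.058 in Both vs MLN and 0.047 in Both vs shARF, HSPA1A 0.070 and HSPA1B 0.050 in Both vs MLN, and HSPA1B 0.091 in the interaction. Without mitochondrially encoded genes HSF1 became 0.015 in Both vs shARF, HSPA1A 0.00066 in Both vs MLN, HSPA1B 0.050 in the interaction and HSPB1 -0.018 in shARF vs Ctrl.

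Leaving out each library in turn gave 0 to 1 of the 10 genes and 4005 to 5731 of all genes in Both vs MLN, lowest without MLN 2, with 4199 without Both 2, and 6 to 7 of the 10 in MLN vs Ctrl. DNAJB1 ran from -0.23 to 0.020 in Both vs MLN and from -9.0e-05 to 0.13 in shARF vs Ctrl. HSF1 ran from -0.11 to 0.018 in Both vs MLN and from -0.092 to 0.032 in Both vs shARF, and HSPA1A from -0.091 to 0.098 in Both vs MLN. HSPA1B ran from -0.15 to 0.13 in Both vs MLN, from -0.12 to 0.16 in the interaction and from -0.12 to 0.017 in shARF vs Ctrl. HSPA8 ran from -0.034 to 0.18 in the interaction and HSPB1 from -0.070 to 0.063 in shARF vs Ctrl.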
